A study of Mus musculus with 10 samples.

Results

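The miR-23, miR-27 and miR-24 miRNAs are made from 2 paralogous clusters, miR-23a/27a/24-2 on chromosome 8 and miR-23b/27b/24-1 on chromosome 13. The 10 entries of the retinal miRNA table that bear the name of a mature strand of these clusters were taken, out of 1061 mature miRNAs: mmu-miR-23a-3p, mmu-miR-27a-3p, mmu-miR-27a-5p, mmu-miR-24-2-5p, mmu-miR-23b-3p, mmu-miR-23b-5p, mmu-miR-27b-3p, mmu-miR-27b-5p, mmu-miR-24-1-5p and mmu-miR-24-3p. They are written below without the prefix for mouse. The retinas came from 5 wild-type C57BL/6J mice, an inbred laboratory strain, at postnatal day 34. Each mouse had worn a -20 D lens in a goggle over 1 eye for 10 days from postnatal day 24, which induces myopia, and its other eye had no lens. The left and right retinas of mice 61, 64, 65, 66 and 68 each gave 1 small RNA library, for 5 libraries from each side. Which of the eyes wore the lens is not in the labels. Retinas were therefore contrasted as right against left of 1 animal, and a lens effect would be lost from that contrast wherever the lens was not always on the same side.

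A miRNA hairpin is cut by Drosha and Dicer into a short duplex, 1 strand of which is usually kept by Argonaute as the guide while the other, the passenger strand, is mostly lost. The guide pairs with target mRNAs mainly through its seed, bases 2 to 8. Each of the clusters is processed from 1 primary transcript. The family is best known from endothelial cells, where it takes part in the growth of vessels, including those of the retina and choroid, and miR-27 also restrains adipocyte differentiation. In whole retina, fewer cells of a type and less of a miRNA per cell cannot be told apart.

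A mature sequence was found in RefSeq (build GRCm38.p6) for 9 of the 10 members, the exception being miR-23b-3p. The guide and passenger strands are shown to let a reader compare the seeds, and the last bases that separate reads of paralogues. Capitals mark the seed.
miR-23a-3p: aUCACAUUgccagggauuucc
miR-27a-3p: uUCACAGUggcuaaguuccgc
miR-27b-3p: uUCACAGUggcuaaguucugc
miR-24-3p: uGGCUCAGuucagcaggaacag
miR-24-2-5p: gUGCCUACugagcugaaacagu
miR-24-1-5p: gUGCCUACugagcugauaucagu
miR-27a-5p: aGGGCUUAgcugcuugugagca
miR-27b-5p: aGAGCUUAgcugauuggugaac
miR-23b-5p: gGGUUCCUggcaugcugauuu

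miR-27a-3p and miR-27b-3p share the seed UCACAGU and differ by 1 base, C19U, counted from the 5′ end with the base of miR-27a-3p first. miR-24-3p has 1 sequence at 2 loci, one in each cluster, so its reads cannot be assigned to a cluster. The 5p strands of the miR-24 hairpins can be told apart, although their first 16 bases are the same. Among the 909 miRNAs of the table with a RefSeq sequence, of which miR-23b-3p is not one, the seeds of miR-27a-3p, miR-27b-3p and both miR-24 5p strands were shared with no miRNA other than their paralogue. The seeds of miR-23b-5p, miR-27a-5p and miR-27b-5p were shared with none. That of miR-23a-3p was shared with none of the 909 either, but it could not be compared with its paralogue miR-23b-3p. The seed of miR-24-3p was shared with miR-5124b, whose mean was 0.271 normalised reads. How reads that match both paralogues were assigned is not given in the sources used here, so the split between miR-27a-3p and miR-27b-3p, and between the miR-24 5p strands, carries that uncertainty.

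The cluster on chromosome 8 spans 404 bases of the plus strand, from the start of Mir23a at 84208518 to the end of Mir24-2 at 84208921, and lies inside no other annotated gene. Its strands are miR-23a-3p (84208563 to 84208583), miR-27a-5p (84208685 to 84208706), miR-27a-3p (84208727 to 84208747), miR-24-2-5p (84208839 to 84208860) and miR-24-3p (84208875 to 84208896). The cluster on chromosome 13 spans 792 bases of the plus strand, from 63300484 to 63301275, inside the protein-coding gene 2010111I01Rik of the same strand and antisense to an intron of Fancc. miR-23b-5p (63300492 to 63300512) and miR-23b-3p (63300529 to 63300549) lie in an intron of 2010111I01Rik. miR-27b-5p (63300718 to 63300739), miR-27b-3p (63300760 to 63300780) and miR-24-1-5p (63301213 to 63301235) overlap an exon of at least 1 of its transcripts. The Mir3074 hairpins lie antisense to both miR-24 hairpins, and whether strand was used in counting is not stated. In this table miR-3074-5p, antisense to miR-24-3p, had a mean of 43.1 normalised reads, and miR-3074-1-3p, antisense to miR-24-1-5p, had 25.4.

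The values are the authors' normalised read counts. Every library has nearly the same total, from 17312269 to 17312436, and at 342 ranks the same value stood in every library, so that the values carry ranks more than reads, and sequencing depth is unknown. miRNAs of photoreceptors (miR-182-5p, miR-183-5p and miR-96-5p) and of neurons (miR-124-3p and miR-9-5p) were all measured, with summed levels of at least 10550800 and 122458 normalised reads in each library. The libraries of mice 61 and 68 stood apart from those of mice 64, 65 and 66 for 34 of the 484 miRNAs tested (7.02%), which was noticed after the values were seen, and the labels name no batch. The right library of mouse 65 had a sum of 22409 for the lens and cornea markers (2 of 2 measured), against at most 2138 in the other libraries. The left library of mouse 68 had a sum of 1623 for the muscle markers (2 of 2 measured), against at most 368 in the others.

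The 2 miR-27 guides made up nearly all of the signal of the family. miR-27b-3p, the most abundant member, had a mean of 62720.1 ± 1482 normalised reads (SD over 10 libraries) and miR-27a-3p a mean of 9794 ± 2420. Together with the other 8 strands they took 0.433% ± 0.016 (SD, n = 5 mice) of the normalised total. Within that sum, miR-27b-3p took 83.6%, miR-27a-3p took 13.1% and the remaining 8 strands took 3.31%. The other 3 guides formed a close group, with miR-23b-3p at 856 ± 114, miR-24-3p at 679 ± 87.7 and miR-23a-3p at 623 ± 135 normalised reads (SD over 10 libraries). The passenger strands followed with miR-27b-5p at 216 ± 16.3 and miR-24-2-5p at 98.9 ± 20.1. miR-24-1-5p, at 6.76 ± 3.38, miR-27a-5p, at 4.19 ± 3.33, and miR-23b-5p, at 0.254 ± 0.457, lay below the mean of 10 normalised reads required for testing. Ligation of adapters depends on the sequence of a small RNA, so a gap in level between different strands is not a ratio of molecules.

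**Figure D1:**
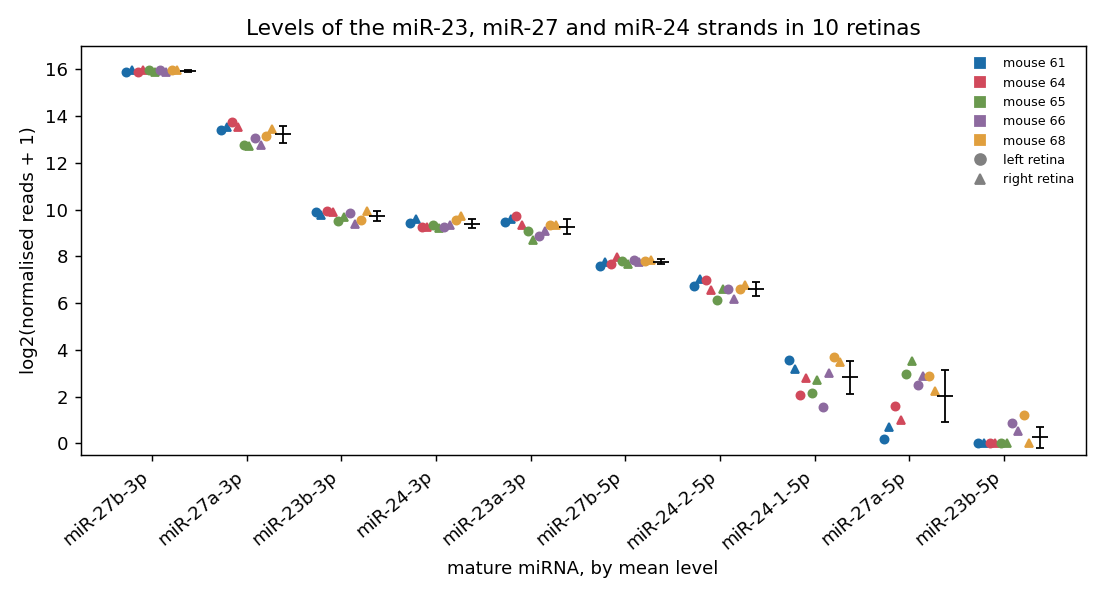
Level of each of the 10 strands on the vertical axis, as log2(normalised reads + 1), with 1 point per library, coloured by mouse and shaped by side; the black bar is the mean and SD over 10 libraries. miR-27b-3p and miR-27a-3p sit above the other strands in all 10 libraries, and the 3 least abundant strands, miR-24-1-5p, miR-27a-5p and miR-23b-5p, spread most on this scale.

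Most neighbours in this order kept their places in every library. miR-27b-3p was above miR-27a-3p, miR-27a-3p above miR-23b-3p, miR-23a-3p above miR-27b-5p, miR-27b-5p above miR-24-2-5p, miR-24-2-5p above miR-24-1-5p and miR-27a-5p above miR-23b-5p in 10 of 10 libraries. For each of these 6 pairs a two-sided exact permutation of signs (sign-flip test, n = 5 mice) gave p = 0.0625, or 0.0804 adjusted over the 9 neighbouring pairs. This is the smallest unadjusted value that 5 mice allow, so the design cannot reach 0.05. The 9 pairs were ordered by means over these same libraries, so their p values describe the order and give it no further support. miR-23b-3p was above miR-24-3p in 9 of 10 libraries and in 5 of 5 mice, by 0.33 ± 0.20 on the log2 scale (SD, n = 5; exact sign-flip test, p = 0.0625). The order of miR-24-3p and miR-23a-3p was not fixed, since the first was higher in 6 of 10 libraries and in 3 of 5 mice (difference 0.14 ± 0.29, SD, n = 5; exact sign-flip test, p = 0.25). Nor was that of miR-24-1-5p and miR-27a-5p, with the first higher in 7 of 10 libraries and 3 of 5 mice (0.77 ± 1.47, SD, n = 5; exact sign-flip test, p = 0.375).

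Strands cut from 1 primary transcript differed widely in level. miR-27b-3p exceeded miR-23b-3p, its neighbour in the cluster on chromosome 13, by 6.21 ± 0.14 on the log2 scale (SD, n = 5 mice), which is 73.8-fold, with a range from 63.1-fold to 92.0-fold over the 10 libraries. miR-27a-3p exceeded miR-23a-3p on chromosome 8 by 3.96 ± 0.09 (SD, n = 5 mice), or 15.6-fold, with a range from 12.9-fold to 18.6-fold. Both gaps varied little between mice, the first with miR-27b-3p at only 2 values.

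The 3 readings of the balance between the clusters gave 3 different answers. miR-27b-3p stood 2.72 ± 0.36 above miR-27a-3p on the log2 scale (SD, n = 5 mice), or 6.59-fold, and was higher in 10 of 10 libraries. miR-23b-3p was 0.48 ± 0.18 above miR-23a-3p (SD, n = 5 mice), or 1.39-fold, also in 10 of 10 libraries. The miR-24 5p strands ran the other way, with miR-24-1-5p of chromosome 13 lower than miR-24-2-5p of chromosome 8 in 10 of 10 libraries, by a log2 ratio of -3.80 ± 0.49 (SD, n = 5 mice). With a pseudocount of 10 in place of 1, that last ratio was -2.70, because miR-24-1-5p is close to the pseudocount.

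Set against each other, the miR-27 balance exceeded the miR-23 balance by 2.24 ± 0.21 on the log2 scale (SD, n = 5). The miR-23 balance in turn exceeded that of the miR-24 5p strands by 4.28 ± 0.57 (SD, n = 5). The miR-27 balance exceeded that of the miR-24 5p strands by 6.52 ± 0.62 (SD, n = 5). Each of these 3 differences had the same sign in 5 of 5 mice and an exact sign-flip p of 0.0625, which was also the value after Benjamini-Hochberg adjustment over the 3.

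**Figure D2:**
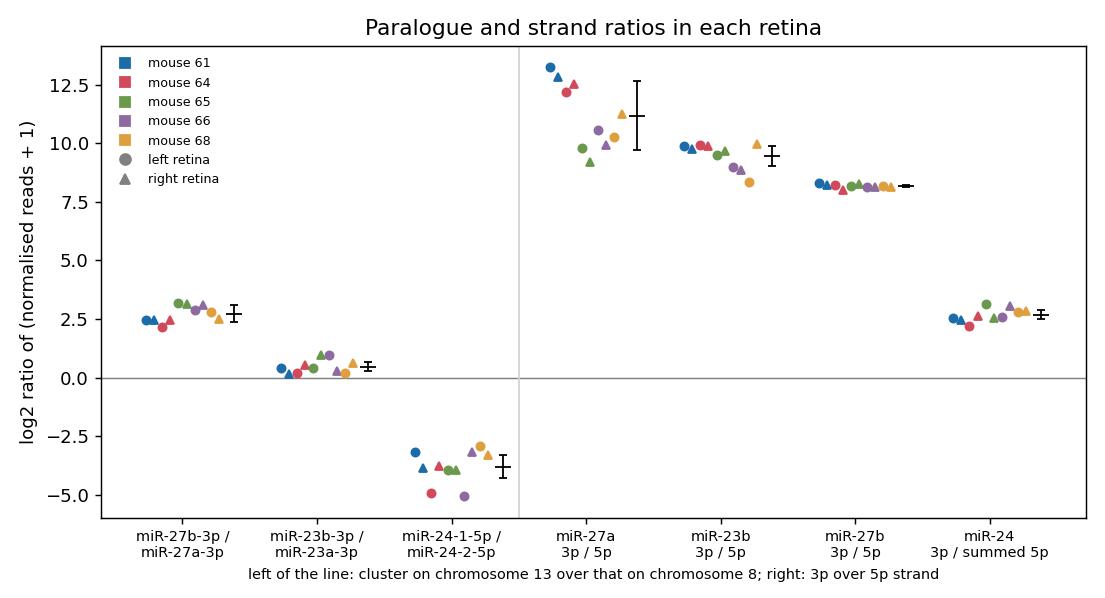
Log2 ratios on the vertical axis, 1 point per library, with the mean and SD over 5 mice in black; the 3 ratios left of the line set the cluster on chromosome 13 over that on chromosome 8, and the 4 right of it set the 3p over the 5p strand. The cluster ratios lie near 2.72, 0.48 and -3.80, on both sides of 0. The miR-27b strand ratio has the narrowest spread of the strand ratios, but miR-27b-3p took only 2 values.

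In all 4 hairpin comparisons the 3p strand dominated, which is the arm known as the guide in this family. miR-27b-3p exceeded miR-27b-5p by 8.18 ± 0.06 on the log2 scale (SD, n = 5 mice), or 290-fold, and the ratio stayed between 258-fold and 320.2-fold in the 10 libraries. Since miR-27b-3p took only 2 values, 60997.7 and 63868.4, that range was set mostly by miR-27b-5p, at 189 to 247 normalised reads. miR-24-3p exceeded the summed 5p strands of both miR-24 hairpins by 2.69 ± 0.20 (SD, n = 5 mice), or 6.44-fold, the smallest of the 4 gaps. That gap depends on how reads of both miR-24-3p loci were counted, which is not given. miR-27a-3p exceeded miR-27a-5p by 11.18 ± 1.46 (SD, n = 5 mice), and miR-23b-3p exceeded miR-23b-5p by 9.47 ± 0.43 (SD, n = 5 mice). These last values rest on passenger strands near the pseudocount of 1, since miR-27a-5p ranged from 0.132 to 10.5 normalised reads and miR-23b-5p was listed at 0 in 7 of 10 libraries. With a pseudocount of 10 they were 9.43 and 6.39.

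Other hairpins place these gaps. Of the 237 hairpins with both strands in the table and at least 1 of them at a mean of 10 or more, the 3p strand was higher in 111 (46.8%), and the median gap between strands, taken from means over libraries, was 4.45 on the log2 scale, or 21.8-fold. By the size of that gap miR-27b ranked 43 of 237. No rank is given for miR-27a and miR-23b, since their passenger strands lie near the pseudocount, which sets the size of the gap.

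Right and left retinas of the same animals were then compared. No member passed the test. Of the 10 members, 7 were tested, and 0 of them were past an adjusted p of 0.05 by limma, where 0 of 484 miRNAs (0%) passed over the whole table. At an unadjusted p under 0.05 by limma there were 0 members and 12 of the 484 miRNAs. The median log2 difference of the 7 members was 0, beside -0.01 for all tested. Their adjusted p values by limma ran from 0.971 to 1. A single direction in all 5 mice was seen in 0 of the 7, where 18 of 484 (3.72%) had one.

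miR-27b-3p took only 2 values, those of ranks 15 and 16. It stood at 60997.7 in the left libraries of mice 61 and 64 and at 63868.4 in those of mice 65, 66 and 68. In the right libraries it was at 63868.4 in mice 61, 64 and 68 and at 60997.7 in mice 65 and 66. The side means were equal, at 62720.1 ± 1572 (SD, n = 5) on both sides, and the 95% interval of the log2 difference by limma was from -0.07 to 0.07. The miRNAs 1 rank above or below it included miR-181c-5p, miR-191-5p and miR-26b-5p. A change that left its rank in place would not be seen in such values. miR-27b-5p, the passenger strand of the same hairpin, had the same sign of difference in 4 of the 4 mice in which miR-27b-3p differed between eyes. How many of the 484 tested miRNAs did the same was not counted, so this is not known to be particular to the hairpin. Across the 10 libraries miR-27b-3p correlated by 0.79 with miR-27b-5p (Pearson), beside 0.82 with miR-127-3p and 0.81 with miR-9769-3p.

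miR-27b-5p had 189, 202, 219, 228 and 221 normalised reads in the left retinas of mice 61, 64, 65, 66 and 68 and 214, 247, 199.7, 213 and 226 in the right ones. Both sides covered nearly the same range, with a log2 difference of 0.05 (SE 0.09; limma, adjusted p = 0.974).

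miR-27a-3p, the guide of the paralogous hairpin, had 10929.6, 13805, 7028, 8618 and 9068 normalised reads in the left retinas of mice 61, 64, 65, 66 and 68. In the same order the right retinas had 11669.7, 11669.7, 6826, 7028 and 11298. The sides overlapped almost completely, and the log2 difference was -0.03 (SE 0.10), with a 95% interval by limma from -0.26 to 0.20.

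miR-23b-3p had left values of 941, 966, 719, 914 and 748 normalised reads and right values of 870.02, 941, 809, 662 and 988, in the same order of mice. Its log2 difference of -0.01 (SE 0.13) was made of -0.46 in mouse 66 and 0.40 in mouse 68 with smaller values between them. For miR-23a-3p the left values were 707, 842, 535, 463 and 648 and the right values 779.7, 648, 417, 542 and 648. Mice 64 and 65 were lower on the right and mice 61 and 66 higher, and both eyes of mouse 68 had the same value (log2 difference -0.07, SE 0.12; limma, adjusted p = 0.972).

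miR-24-3p, whose sequence lies in both clusters, had left values of 691, 606, 648, 606 and 758 normalised reads. Its right values were 769.6, 606, 599, 648 and 853. Its log2 difference of 0.06 (SE 0.08) was the highest of the 7 tested members, and 3 mice were higher on the right, 1 lower and 1 equal (limma, adjusted p = 0.971). miR-24-2-5p ranged from 68.3 to 126 on the left and from 70.2 to 129.95 on the right, and its differences in single mice ran from -0.46 in mouse 66 to 0.50 in mouse 65. It had the widest 95% interval by limma of the 7 members, from -0.40 to 0.42, which allows a change of up to 1.34-fold.

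**Figure D3:**
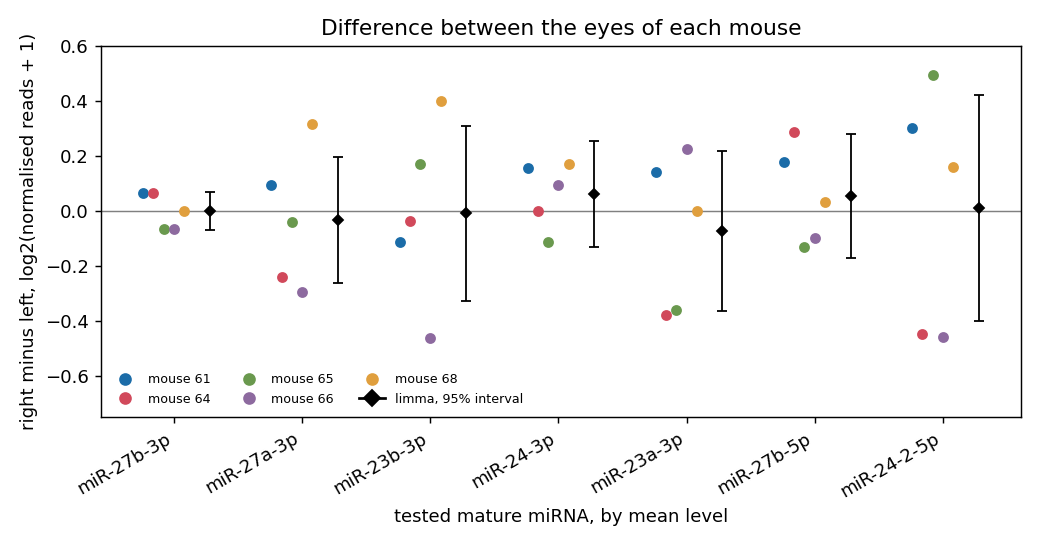
Right minus left in log2(normalised reads + 1) on the vertical axis for the 7 tested strands, with 1 point per mouse and, in black, the limma estimate with its 95% interval. Every interval includes 0, from the narrowest, miR-27b-3p at -0.07 to 0.07, to the widest, miR-24-2-5p at -0.40 to 0.42.

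The 3 members below the filter were compared by the exact sign-flip test alone. miR-24-1-5p had left retinas at 6.23 ± 4.65 and right retinas at 7.29 ± 1.86 normalised reads (SD, n = 5; exact p = 0.3125). miR-27a-5p was at 3.97 ± 2.85 and 4.42 ± 4.09 (SD, n = 5; exact p = 1). miR-23b-5p was listed at 0 in 7 libraries and above 0 in the left retinas of mice 66 and 68 and the right retina of mouse 66, with a highest value of 1.3 (exact p = 0.5). Adjusted over these 3 members, the exact p values were at least 0.75.

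Averaged over the 5 mice, each ratio differed between the eyes by less than its SD between mice. In single mice the eyes could differ by more. In mouse 66 the log2 ratio of miR-23b-3p to miR-23a-3p was 0.98 in the left and 0.29 in the right retina. The SD of that ratio between mice was 0.18. Right minus left was 0.03 ± 0.25 on the log2 scale for miR-27b-3p over miR-27a-3p (SD, n = 5; exact sign-flip test, p = 1). For miR-23b-3p over miR-23a-3p it was 0.06 ± 0.52 (SD, n = 5; exact p = 0.8125), and for the miR-24 5p strands 0.41 ± 1.09 (SD, n = 5; exact p = 0.4375). Of the strand ratios, that of miR-27b differed by -0.05 ± 0.12 and that of miR-24 by 0.04 ± 0.43 (SD, n = 5; exact p = 0.375 and 0.9375). The share of all members in the normalised total was 0.434% ± 0.0094 in left and 0.433% ± 0.026 in right libraries (SD, n = 5; exact p = 0.875). Over the 9 ratios compared the lowest exact p was 0.375, and the lowest after adjustment over the 9 was 1.

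Between mice, miR-27a-3p and miR-23a-3p had the highest F of the 7 tested members, but no member passed the adjusted test. An F test over the 5 mice in the same limma fit asked whether a miRNA varied between animals beyond the spread between the eyes of an animal. Of the 7 tested members, 0 passed at an adjusted p of 0.05, where 8 of 484 miRNAs (1.65%) did. At an unadjusted p under 0.05 there were 2 members, miR-27a-3p and miR-23a-3p, and 68 of 484 miRNAs (14%). miR-27a-3p had F = 11.7 (limma, unadjusted p = 0.00428, adjusted p = 0.122) and miR-23a-3p F = 5.23 (unadjusted p = 0.0330, adjusted p = 0.289). miR-24-3p followed with F = 3.93 (limma, adjusted p = 0.360), whereas miR-27b-3p, at F = 0.22, had the lowest F of the 7. The untested miR-27a-5p and miR-24-1-5p had larger coefficients of variation over the 10 libraries, 79.4% and 50.03%, than miR-27a-3p with 24.7% and miR-23a-3p with 21.6%.

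Several strands, of both clusters, were lowest in mice 65 and 66. As means of both eyes, miR-27a-3p was at 11299.7, 12737, 6927, 7823 and 10183 normalised reads in mice 61, 64, 65, 66 and 68. miR-23a-3p was at 743, 745, 476, 503 and 648 in the same order. In the 4 libraries of mice 65 and 66, miR-27a-3p ranged from 6826 to 8618, below the 9068 to 13805 of the other 6 libraries. miR-23a-3p ranged from 417 to 542 there, below 648 to 842. miR-24-2-5p, the passenger strand of the third hairpin of that cluster, was also lowest in mice 65 and 66, with means of 82.6 and 83.5 against 102 to 118 in the others, but its libraries overlapped. The chromosome 13 guide miR-23b-3p was lowest in these mice too, with means of 764 and 788 against 868, 906 and 954 in mice 68, 61 and 64, and its libraries overlapped as well (662 to 914 against 748 to 988). These mice were singled out after their values were seen, and no test of this split was made. How many of the 484 tested miRNAs part these mice in the same way was not counted. The separation is therefore not known to be particular to these strands.

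Some marker sums also set mice 65 and 66 apart and others did not, and all are given as means of both eyes. The endothelial markers (2 of 2 measured) summed to 7853 and 7689 normalised reads in mice 65 and 66 and to 8151, 8609 and 9018 in mice 64, 61 and 68. That sum is mostly miR-126a-5p, at 5938 and 5856 in mice 65 and 66 against 6483 to 7169. miR-126a-3p did not move with these mice, at 1915 and 1833 against 1668 in mouse 64 and 1849 in both mice 61 and 68. The mural cell markers, led by miR-143-3p and miR-145a-5p (3 of 3 measured), summed to 20318 and 18362 in mice 65 and 66 and to 15010.0 to 17186 in the others. The erythrocyte markers (4 of 4 measured), led by miR-486a-5p and miR-451a, summed to 2719 and 2889 there and to 3045 to 3734 in the others. Higher sums in mice 65 and 66 were also found for the neuronal miRNAs (145651 and 138778 against 129253 to 131903), the vessel growth list (75790 and 75308 against 63766 to 69403) and the Müller glia list (274172 and 271172 against 261747 to 266468). The neuronal and Müller glia lists share miR-9-5p, and the vessel growth list holds both endothelial markers, so these sums are not separate observations. The Müller glia and pigment epithelium lists share miR-204-5p. Lower sums were found for the pigment epithelium markers (214649 and 211627 against 215001 to 222644) and the photoreceptor markers (10553700 and 10555600 against 10566500 to 10571600). miR-182-5p, miR-183-5p and miR-204-5p had the same value in every library. The photoreceptor sum therefore moved only through miR-96-5p. The pigment epithelium sum moved only through its less abundant markers, led by miR-211-5p. The remaining marker sums did not part these mice from the others. They were 1887 and 1800 against 1804 to 2282 for leukocytes, and 11704 and 1820 against 1814 to 2081 for lens and cornea. For muscle they were 349 and 324 against 272 to 935. No marker on these lists was at 0 in all libraries. The part of these values in the differences between mice was not tested.

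miR-27a-5p ran against its own guide across mice. Its means of both eyes were 0.378 in mouse 61, 1.5 in 64, 8.65 in 65, 5.45 in 66 and 4.997 in 68, so that the mice with the highest guide had the lowest passenger strand. The log2 ratio of guide to passenger was 13.02 and 12.34 in mice 61 and 64 and 9.52, 10.25 and 10.76 in mice 65, 66 and 68. These passenger values are below the filter and no test was made of this order. On chromosome 13 the miR-27b strand ratio stayed between 8.12 in mouse 64 and 8.27 in mouse 61. There the guide took only 2 values, so the ratio could move little through it.

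**Figure D4:**
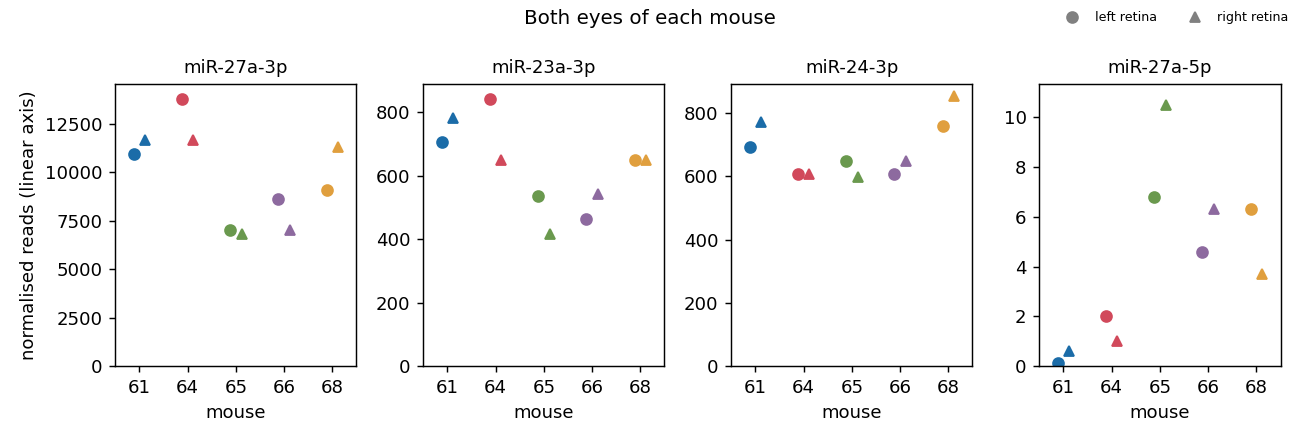
Normalised reads on linear vertical axes from 0 in both eyes of each mouse, for miR-27a-3p, miR-23a-3p, miR-24-3p and miR-27a-5p. The first 2 are lowest in mice 65 and 66, miR-24-3p is highest in mice 61 and 68, and miR-27a-5p is lowest in mice 61 and 64.

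Both guide ratios between the clusters were highest in mice 65 and 66. The log2 ratio of miR-27b-3p to miR-27a-3p was 3.17 and 3.003 in mice 65 and 66, against 2.47, 2.30 and 2.66 in mice 61, 64 and 68. That of miR-23b-3p to miR-23a-3p was 0.69 and 0.63, against 0.29, 0.37 and 0.41. Since miR-27b-3p took only 2 values, 60997.7 and 63868.4, the first of these ratios mostly restates the low miR-27a-3p of mice 65 and 66. The second has the low miR-23a-3p of these mice as its denominator, so it is not a separate observation either.

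miR-24-3p separated the mice in another way. Its values in the 4 libraries of mice 61 and 68, from 691 to 853 normalised reads, all lay above the 599 to 648 of the other 6 libraries. miR-24-1-5p did the same at its low level, with 7.94 to 11.9 against 1.95 to 7.01. Of the 7 tested members miR-24-3p was the 1 with this separation, beside 34 of 484 miRNAs (7.02%). Among the 8 miRNAs called between mice, 7 had it, led by miR-26b-5p, with 76000 to 81300 normalised reads in mice 61 and 68 against 51974 to 57479 in the others (limma, adjusted p = 0.00167).

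miR-128-3p is of interest here because its first 7 bases are the seed of miR-27, which places the same letters 1 base nearer to the 5′ end. It is a neuronal miRNA and is shown for that overlap, with the shared letters in capitals.
miR-128-3p: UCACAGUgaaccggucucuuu
It was among the 8 called between mice, with 2117 and 2039 normalised reads in the left and right retina of mouse 61, 1990.02 and 1535 in mouse 68 and 4352 to 4871 in the other 6 libraries (limma, adjusted p = 0.00390). Its order of mice was thus not that of miR-27a-3p, which was lowest in mice 65 and 66. The third in order of adjusted p was miR-322-3p, at 44.2 to 59.5 in mice 61 and 68 and 119.8 to 181 in the others (limma, adjusted p = 0.00390). In the right-minus-left contrast miR-128-3p had a log2 difference of -0.12 (SE 0.07; limma, adjusted p = 0.958).

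Other miRNAs linked to vessels and glia were measured beside the family. In a list of 15 miRNAs known from the growth of vessels, 15 were tested and 0 were called right against left. Of these, 3 were above 0 and 12 below, with a median log2 difference of -0.08 beside -0.01 for all tested. Its most abundant members were miR-92a-3p, with 35521 ± 4795, and miR-21a-5p, with 9498 ± 749 normalised reads (SD over 10 libraries), so that miR-27b-3p was above both. The 3 miRNAs listed for Müller glia, the radial glia of the retina, were led by miR-204-5p at 203500 normalised reads in every library and miR-9-5p at 52911 ± 6352 (SD over 10 libraries). Of these, 0 were called in either comparison, and of the vessel list 0 were called between mice.

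Likeness across the 10 libraries, which come from 5 animals and share their ranked values, is given as a description. Among 473 other tested miRNAs, the log2 values of miR-23b-3p were most like those of miR-542-5p (Pearson 0.82, Spearman 0.60) and miR-1247-5p (0.82 and 0.77). For miR-24-3p they were miR-26b-5p (Pearson 0.82, Spearman 0.68) and miR-8111 (0.81 and 0.76). For miR-27b-3p, with its 2 values, they were miR-127-3p (0.82 and 0.82) and miR-9769-3p (0.81 and 0.85).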

How the data were processed

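Small RNA of retina was isolated with a column kit and made into TruSeq libraries from 50 ng, per the labels. The submitters' processing notes name Bowtie and Partek, and GRCm38 and mm10 as builds. For trimming, annotation, strand, normalisation and reads with several matches, the method is not given in the sources used here. Each deposited value is a signal, a normalised read count by the table's own name. Equal totals and shared ranks are what quantile normalisation gives, so depth is unknown and no counting interval could be given. The table held 0 columns of other samples.

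The 484 of 1061 miRNAs with a mean of at least 10 were fitted as log2(value + 1) with limma 3.58.1 in R 4.3.3, with side and mouse as terms and a mean-variance trend. Fold changes on this scale understate changes of low miRNAs. P-values were two-sided and adjusted by Benjamini-Hochberg over all 484, with a threshold of 0.05. Mouse numbers pair retinas of 1 animal, per the labels. Deviations of both eyes from the mean of their side correlated by 0.0893 to 0.382 within mice (median 0.159) and by -0.338 to 0.355 between mice (median -0.0824), across miRNAs. For ratios, levels and the share an exact sign-flip test over 5 mice was used, with SciPy 1.17.1, and fitted steps were tested on simulated data.

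The members and lists were chosen with earlier results of these data known. Named miRNAs are the 10 members, the 2 most like each of 3 guides, the 2 most abundant of each list, those sharing a seed, and up to 3 called in a comparison. The ratios of miR-27 to miR-23 within a cluster, the right-minus-left values of ratios, the members' adjusted p between mice and the fit of mice 64, 65 and 66 alone were added after seeing the data. Ends are given as the last base, 1 before the table's end, as for 9 of 9 members in RefSeq.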

Additional observations from a re-analysis of the deposited data

Results flagged for a closer look

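In 1 of the 20 groups of 5 libraries (10 members, left and right), a single library lay far from the others. For miR-23b-5p this was the right library of mouse 66, at 0.441 normalised reads, with the other right libraries listed at 0. About 1 of 20 groups is flagged by chance, a rate that does not hold for values tied at 0. With the other right libraries at 0, any value above 0 would have been flagged here. So low a value need not mean that the strand was detected.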

How the results depend on the processing

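No member was past the threshold right against left under any alternative run, with adjusted p values by limma from 0.539 to 1, and the number of miRNAs called stayed 0, also without the replicate block (0). The unadjusted count was 12 of 484, and 62 without mouse 65. Between mice, 8 miRNAs were called, 5 without the trend, 3 to 7 without each mouse in turn (3 without mouse 68, 4 without 64 or 66, 5 without 61) and 0 in mice 64, 65 and 66 alone (a choice made after seeing the data). The adjusted p of miR-27a-3p between mice ran from 0.0721 to 0.264. Ratios with a strand near the pseudocount moved: with a pseudocount of 10, miR-24-1-5p over miR-24-2-5p was -2.70, miR-27a 3p over 5p was 9.43 and miR-23b 3p over 5p was 6.39, and with 0.1 the last was 12.11. Without miR-182-5p and miR-181a-5p in the denominator the share of the members was 1.98%. Differences between the eyes near 0 changed sign. miR-23b-3p was 0.0065 with median-ratio scaling. In mice 64, 65 and 66 alone, miR-24-2-5p was -0.136, miR-24-3p -0.0060, the miR-23b strand ratio -0.0040 and miR-27a over miR-23a -0.022. Without each mouse in turn, miR-23a-3p ran from -0.149 to 0.0020, miR-23b-3p from -0.112 to 0.105, miR-24-2-5p from -0.110 to 0.128, miR-27a-3p from -0.121 to 0.032 and miR-27b-5p from -0.0048 to 0.0998. The differences of the ratios ran from -0.051 to 0.254 for miR-23b over miR-23a, -0.035 to 0.121 for miR-27b over miR-27a, -0.088 to 0.112 for miR-27b over miR-23b, -0.029 to 0.181 for miR-27a over miR-23a, -0.340 to 0.066 for the miR-27a strands, -0.031 to 0.405 for the miR-23b strands and -0.067 to 0.198 for the miR-24 strands. That of the share ran from -0.0067 to 0.0054 percentage points.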
